A study of Homo sapiens with 2 samples.

Results

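The subject is the zinc finger genes of human chromosome 19 in Huh-7 cells after DEPDC1 depletion. Members were the genes whose symbol in the array's platform annotation begins with ZNF and a digit and that lie on chromosome 19 by the RefSeq gene table, with ZNF224 left out. The rule gave 236 members out of 18417 genes with at least 1 probe set annotated to them alone. RefSeq classes 224 of them as protein-coding, 8 as transcribed pseudogenes and 4 as long non-coding RNAs. RefSeq lists 303 such genes on the chromosome, 249 of them protein-coding. The family was selected on the siRNA minus NC differences of these same 2 arrays, so all its values are given as a description.

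Total RNA of Huh-7, an established human hepatocellular carcinoma line, was hybridised to 2 Affymetrix expression arrays. One array held cells transfected with siRNA against DEPDC1, which encodes a DEP domain protein, and the other held cells transfected with the control called NC in the labels. Both cultures were collected 72 h after transfection. With 1 array per group nothing below was checked in a replicate, and no test was made. The labels give neither the sequence nor the number of siRNAs. Huh-7 is 1 cell line, so nothing here bears on other liver cells.

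A C2H2 zinc finger is a short loop of protein folded around a zinc ion, and an array of such fingers reads a stretch of DNA. Most genes of this family on chromosome 19 arose by tandem duplication and lie in dense clusters, many of them confined to primates. The typical member also carries a KRAB domain, which binds the corepressor TRIM28. Which members here carry one was not read from sequence. TRIM28 brings in the histone methyltransferase SETDB1, HP1 proteins and the NuRD deacetylase complex, and the bound locus is packed into heterochromatin. Many of these proteins silence transposable elements. The finger exons of the ZNF genes themselves carry the same heterochromatin mark in many human cell types.

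Members of a cluster are relatives in sequence as well as neighbours. The words below were picked for being shared at the start sites of a cluster and rare among all genes. The contrast between all genes and the cluster a word was picked in thus follows from that choice. Other clusters entered the choice only as part of all genes. RefSeq windows of 300 bases (GRCh38.p14, 250 before and 50 after the start) were matched to 203 members, and 33 members had no entry. The word GGAAGCGGAT, searched on both strands, was found in 11 of 30 members from ZNF175 to ZNF331 (36.7%), in 1 of 173 other members (0.578%) and in 43 of 27305 genes in the promoter table (0.157%). The following 30-base windows, 5′ to 3′ on the gene's strand, show it in capitals in 6 members of that cluster. They are shown because this cluster held the members with the highest median difference. The carriers with the lowest log2 differences, siRNA minus NC, are not among them: ZNF816 (0.39), ZNF677 (0.12), ZNF701 (0.11) and ZNF347 (-0.07). In most of the 11 the word begins at base 7 of the transcript.
ZNF808 (chr19:52527664-52527693, plus strand): acgcaaacccGGAAGCGGATcgggtggagt
ZNF83 (chr19:52638330-52638359, minus strand): gcgcaaacccGGAAGCGGATtatgtggagt
ZNF611 (chr19:52735019-52735048, minus strand): acgcaaacccGGAAGCGGATcgggtggagt
ZNF320 (chr19:52897667-52897696, minus strand): gcatagacccGGAAGCGGATggcagggact
ZNF845 (chr19:53333745-53333774, plus strand): gcgcaaacccGGAAGCGGATcgcatggagt
ZNF813 (chr19:53467741-53467770, plus strand): gcgaaaacccGGAAGCGGATcgcgtggagt

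A second word, TCCAATCAGG, was found in 25 of 29 members from ZNF101 to ZNF507 (86.2%) and in 12 of 21 from ZNF653 to ZNF791 (57.1%). It was found in 3 of the 123 members outside those clusters and outside ZNF175 to ZNF331, and in 117 of 27305 genes in the promoter table (0.428%). Those 3, ZNF556, ZNF57 and ZNF77, all lie in the small cluster from ZNF554 to ZNF77. It holds the CCAAT box, a common core promoter element. No match to it was found in the windows of the 30 members from ZNF175 to ZNF331, which says only that these letters are not in those windows. Several members from ZNF101 to ZNF507 carry the word in tandem upstream of the start. Those with the lowest log2 differences, siRNA minus NC, are not shown: ZNF626 (0.42), ZNF675 (0.32) and ZNF208 (0.15). The capitals of the following 60-base windows show the word in the others.
ZNF93 (chr19:19900849-19900908, plus strand): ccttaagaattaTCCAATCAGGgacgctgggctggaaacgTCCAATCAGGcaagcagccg
ZNF737 (chr19:20565820-20565879, minus strand): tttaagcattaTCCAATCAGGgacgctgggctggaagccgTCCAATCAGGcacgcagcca
ZNF43 (chr19:21836222-21836281, minus strand): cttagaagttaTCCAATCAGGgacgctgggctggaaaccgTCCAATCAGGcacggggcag
ZNF724 (chr19:23250428-23250487, minus strand): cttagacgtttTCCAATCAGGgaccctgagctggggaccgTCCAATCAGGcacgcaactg
Another word, CTGTCACTCA, was found in 21 of 29 members from ZNF101 to ZNF507 (72.4%), in 10 of 21 from ZNF653 to ZNF791 (47.6%) and in 114 of 27305 genes (0.418%). The other 153 members with a window held no match to it. Each word is the one that the largest number of members of ZNF175 to ZNF331 or of ZNF101 to ZNF507 hold among 10-letter words found in under 0.5% of genes. Its excess in that cluster over all genes follows from this choice. The last word also had to share no stretch of 6 letters with the one before it. This search was made after the data had been seen, and a match is a description of the sequence and not a binding site.

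The deposited values ran from 1.39 to 12.6 in the siRNA array and from 1.40 to 12.7 in the NC array, and they were taken as log2 expression. DEPDC1, the gene that the label names as the siRNA target, had a log2 value of 5.15 in the siRNA array and 7.82 in the NC array, 6.37-fold lower. ZNF224, the repressor that DEPDC1 is known to bind, had 5.36 in the siRNA array and 5.14 in the NC array. All 10 measured hepatocyte markers were detected in both arrays, between 5.61 and 11.4 in the siRNA array and between 6.32 and 11.9 in the NC array. Their median difference was -0.60, with a range from -1.97 (AFP) to 1.41 (TTR). TTR, APOA2 (0.40) and APOH (0.13) were higher in the siRNA array and the others lower. Of 5 measured immune markers 2 were detected in each array, LYZ (6.05 in siRNA and 4.85 in NC) and CD14 (7.10 and 6.83), and the defining PTPRC (2.38 and 2.28) and CD3E (3.12 and 3.26) were under the threshold in siRNA and NC. Of 7 fibroblast and stellate markers 5 were detected in each array, and DCN (2.49 and 2.33) and PDGFRB (3.97 and 4.37) were not, while LUM had 9.95 in the siRNA array and 7.64 in the NC array and COL1A2 was 2.10-fold higher. None of 5 endothelial markers was detected. The part of these marker differences in the results below was not tested.

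A gene counted as detected if at least 1 of its values was 4.66 or more, which is the median over all probe sets in the 2 arrays pooled. No background was measured, so this threshold is a convention. It left 162 members, of which 131 reached it in both arrays, 27 only in the siRNA array and 4 only in the NC array. The other 74 members lay under it in both. Just under it were ZNF615, ZNF575 and ZNF45, with higher values of 4.66, 4.65 and 4.63. Just above it were ZNF527, ZNF461 and ZNF440, with 4.69, 4.69 and 4.72.

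Most detected members were higher in the DEPDC1 siRNA array. The value was higher for 138 of the 162, lower for 21 and equal for 3, beside 49.9% higher and 48.1% lower among all 11352 detected genes. The median difference, siRNA minus NC on the log2 scale, was 0.29 with quartiles of 0.12 and 0.55, and the median of all detected genes was 0.00. At a fold of at least 1.5, 37 members were higher and 0 were lower, beside 6.03% and 3.74% of all detected genes. At a fold of at least 2, 13 members were higher and 0 lower, beside 1.94% and 0.863%.

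A member that passed the threshold only through its siRNA value had to be higher there, so the counts were also made without it. Over all 236 members, 188 were higher, 41 lower and 7 equal, with a median of 0.21, beside 44.9% higher and 50.3% lower among all 18417 genes. At least 1.5-fold, 39 of the 236 were higher and 0 lower, beside 4.09% and 2.54%, and 13 were at least 2-fold higher, beside 1.25%. A threshold on the mean of both arrays, which neither array decides alone, left 154 members, with 132 higher, 19 lower and 35 at least 1.5-fold higher, beside 50% higher, 47.9% lower and 5.79% at least 1.5-fold higher. On that threshold 12 members were at least 2-fold higher, beside 1.83%, and 0 were at least 1.5-fold lower, beside 3.71%. Of the 37 members at least 1.5-fold higher among the 162, 13 had an NC value under the threshold, as did 8 of the 13 at least 2-fold higher. With values under the threshold set to it, 33 members were at least 1.5-fold higher, and 6 of them reached 2-fold, beside 5.53% and 1.61% of all detected genes treated in the same way.

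The difference was spread over the range of levels. Detected members with a mean below 5 had a median difference of 0.38 (33 members), those from 5 to 6 had 0.23 (78), those from 6 to 7 had 0.29 (36) and those above 7 had 0.21 (15). All detected genes in the same bands had medians of -0.05, 0.00, 0.05 and 0.0043. The band below 5 held most of the 27 members that reached the threshold only in the siRNA array. Those had to be higher there, so the median of that band follows in part from the filter. Across the 162 members, Pearson's r between difference and mean level was -0.07 and Spearman's rho -0.03. These points share the same 2 arrays, so both coefficients are descriptions.

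**Figure D1:**
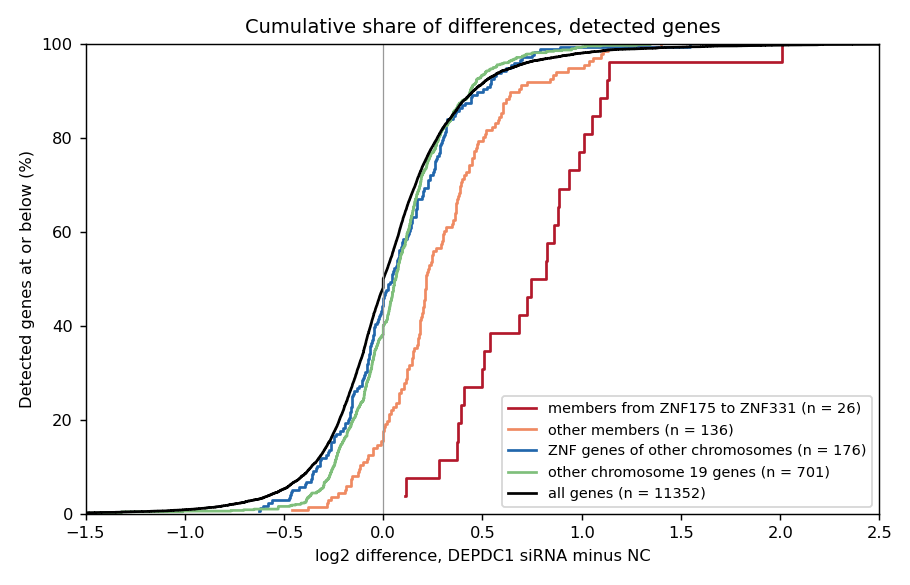
Cumulative share (%, vertical axis) of detected genes with a log2 difference, DEPDC1 siRNA minus NC, at or below the value on the horizontal axis, which is limited to -1.5 to 2.5. The curve of the 26 members from ZNF175 to ZNF331 begins at 0.11 and lies to the right of that of the other 136 members (median 0.21), and the curves of ZNF genes on other chromosomes (median 0.04), other chromosome 19 genes (median 0.06) and all genes (median 0.00) lie close together near 0.

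The groups most like the members had pooled medians nearer to 0. ZNF genes of other chromosomes, which share the protein type but not the location, numbered 257, with 176 detected. Of these 95 were higher, 78 lower and 3 equal, with a median of 0.04, and 11 (6.25%) were at least 1.5-fold higher and 3 lower. By chromosome their medians varied, from -0.06 to 0.31 over the 16 chromosomes with at least 5 detected. The highest were those of chromosome 12 (0.31, 5 of 5 higher), chromosome 17 (0.28, 6 of 7 higher), chromosome 2 (0.26, 4 of 7 higher and 3 of them at least 1.5-fold) and chromosome 10 (0.22, 8 of 11 higher). The median of chromosome 12 thus lay above the 0.29 of the 162 members. Chromosome 19 genes of other kinds numbered 1071, with 701 detected. Of these 420 were higher and 268 lower, with a median of 0.06, and 31 (4.42%) were at least 1.5-fold higher and 7 lower. Zinc finger genes of chromosome 19 with another stem (ZFP, ZSCAN, ZIM or ZIK) numbered 12. Their 6 detected genes split into 3 higher and 3 lower, between -0.20 and 0.19. With 1 array per group these differences between groups of genes were not tested.

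Along the chromosome, members were divided into clusters wherever more than 10 protein-coding genes outside the zinc finger families lay between neighbours. This gave 18 clusters, named here by their first and last member. Of these, 8 had at least 5 detected members and held 148 of the 162. Neighbouring detected members in a cluster had differences of the same sign in 118 of 147 pairs (80.3%), beside 50.8% of neighbouring detected genes of all chromosomes. Of the 162 detected members 138 were higher, and such an excess of 1 sign by itself makes most pairs share a sign. Without ZNF175 to ZNF331 the share was 93 of 122 (76.2%).

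**Figure D2:**
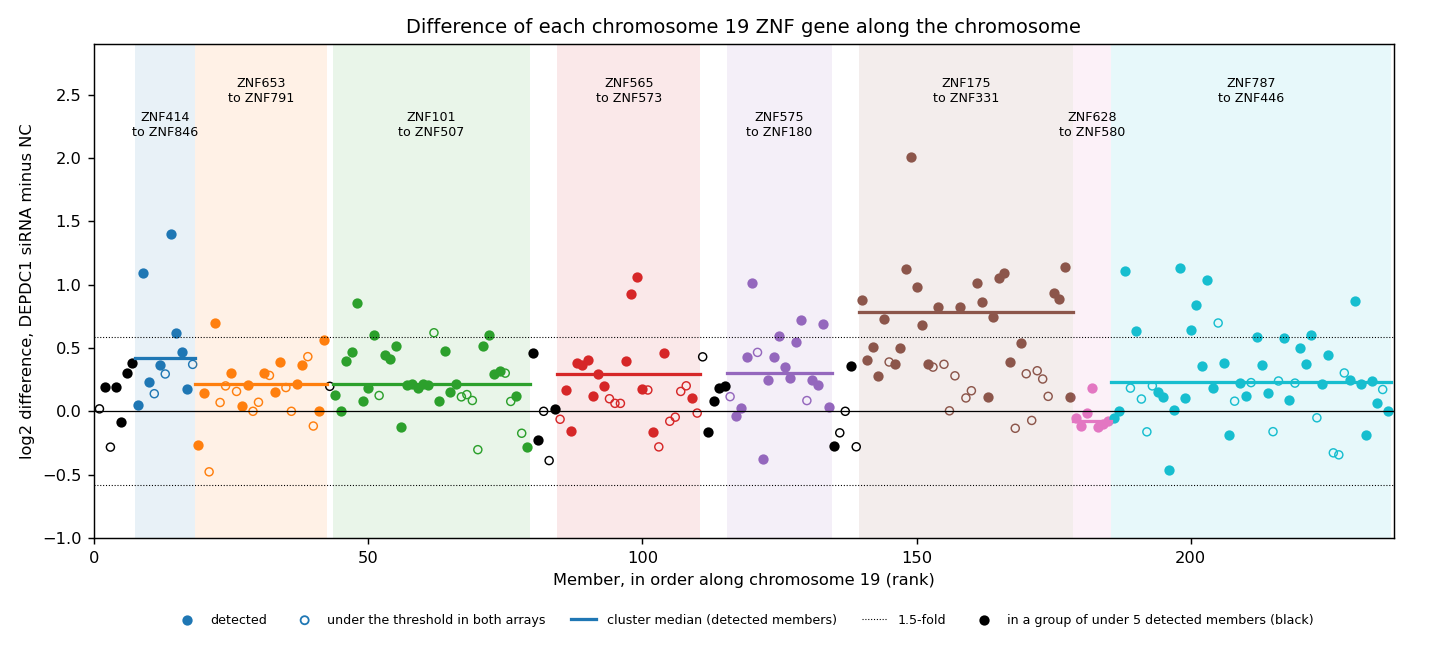
Log2 difference, DEPDC1 siRNA minus NC (vertical axis), of each of the 236 members in their order along chromosome 19 (horizontal axis, rank), with filled points for detected members, open points for members under the threshold in both arrays, a colour and shading for each of the 8 larger clusters, a bar at its median over detected members, black points for the smaller groups, and dotted lines at 1.5-fold. All filled points of ZNF175 to ZNF331 lie above 0 with a median of 0.78, and 6 of the 7 points of ZNF628 to ZNF580 lie below 0.

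The cluster from ZNF175 to ZNF331 had the highest median of the 8. Its 26 detected members, of 39 measured, were all higher in the siRNA array, between 0.11 and 2.01, with a median of 0.78 and quartiles of 0.43 and 0.97. By measured fold 16 of the 26 were at least 1.5-fold higher, and 6 of them reached 2-fold. With values under the threshold set to it, 15 and 4 were. The cluster thus held 43.2% of the 37 members at least 1.5-fold higher and 16.0% of the detected members. Both arrays reached the threshold for 20 of the 26, all of them higher with a median of 0.73, and 12 of these 20 were at least 1.5-fold and 3 at least 2-fold higher, beside 5.31% and 1.46% of the 10660 genes with both values at the threshold or above. Over all 39 measured members 37 were higher, with a median of 0.41, and the lower ones were ZNF702P (-0.13) and ZNF347 (-0.07), both under the threshold.

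The largest measured difference was that of ZNF616, though its rank rests on a dim NC value. Its log2 value was 5.94 in the siRNA array and 3.93 in the NC array, a difference of 2.01. The NC value is under the threshold, so the fold is given as at least 2.43, which is below the 2.64-fold of ZNF426, a member with both values above the threshold. A second probe set of ZNF616 gave 4.71 in the siRNA array and 4.10 in the NC array, a difference of 0.61, so the size of its difference varied widely between its probe sets and the direction did not.

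Its neighbours to either side were also higher. ZNF841 had 7.18 in the siRNA array and 6.05 in the NC array, 2.18-fold higher. ZNF836 had 5.86 in the siRNA array and 4.87 in the NC array, 1.98-fold higher. ZNF766, the next member, had 6.29 and 5.61 in siRNA and NC. These 3 reached the threshold in both arrays.

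Further along, ZNF880 had 5.76 in the siRNA array and 4.94 in the NC array. ZNF808, whose loss in humans impairs pancreas development, had 6.40 in the siRNA array and 5.58 in the NC array, a difference of 0.82. ZNF83 had 6.76 in the siRNA array and 5.75 in the NC array, 2.01-fold higher. ZNF611, which shares its printed start-site window with ZNF808 base for base, had 5.58 and 4.72 in siRNA and NC, a difference of 0.86.

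The distal end of the cluster held several more of the 16. ZNF468 had 6.43 in the siRNA array and 5.38 in the NC array, 2.07-fold higher. ZNF845 had 6.72 and 5.79 in siRNA and NC, 1.91-fold higher, and ZNF761 had 6.83 and 5.95, a difference of 0.89. Members with an NC value under the threshold were ZNF320, with 5.50 in the siRNA array and 4.41 in the NC array (at least 1.79-fold), and ZNF813, with 5.60 and 4.46 (at least 1.92-fold). ZNF28, between ZNF600 and ZNF468, had 7.30 in the siRNA array and 6.56 in the NC array.

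Members of the cluster with a described function differed by 0.11 to 0.88. ZNF175 (OTK18), a repressor of the HIV promoter in macrophages, had 5.20 in the siRNA array and 4.32 in the NC array, at least 1.45-fold higher. ZNF350 (ZBRK1), a repressor that binds BRCA1, had 6.63 and 5.91 in siRNA and NC, a difference of 0.73. ZNF649, a repressor of serum response element and AP-1 reporters, had 5.61 and 5.10, a difference of 0.51. ZNF160, a TRIM28-dependent repressor of TLR4, had 6.45 in the siRNA array and 5.92 in the NC array, a difference of 0.54. The smallest differences were those of ZNF331, an imprinted gene at the cluster's end, with 4.85 and 4.74, and of ZNF600, with 5.68 and 5.57. Both differed by 0.11.

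**Figure D3:**
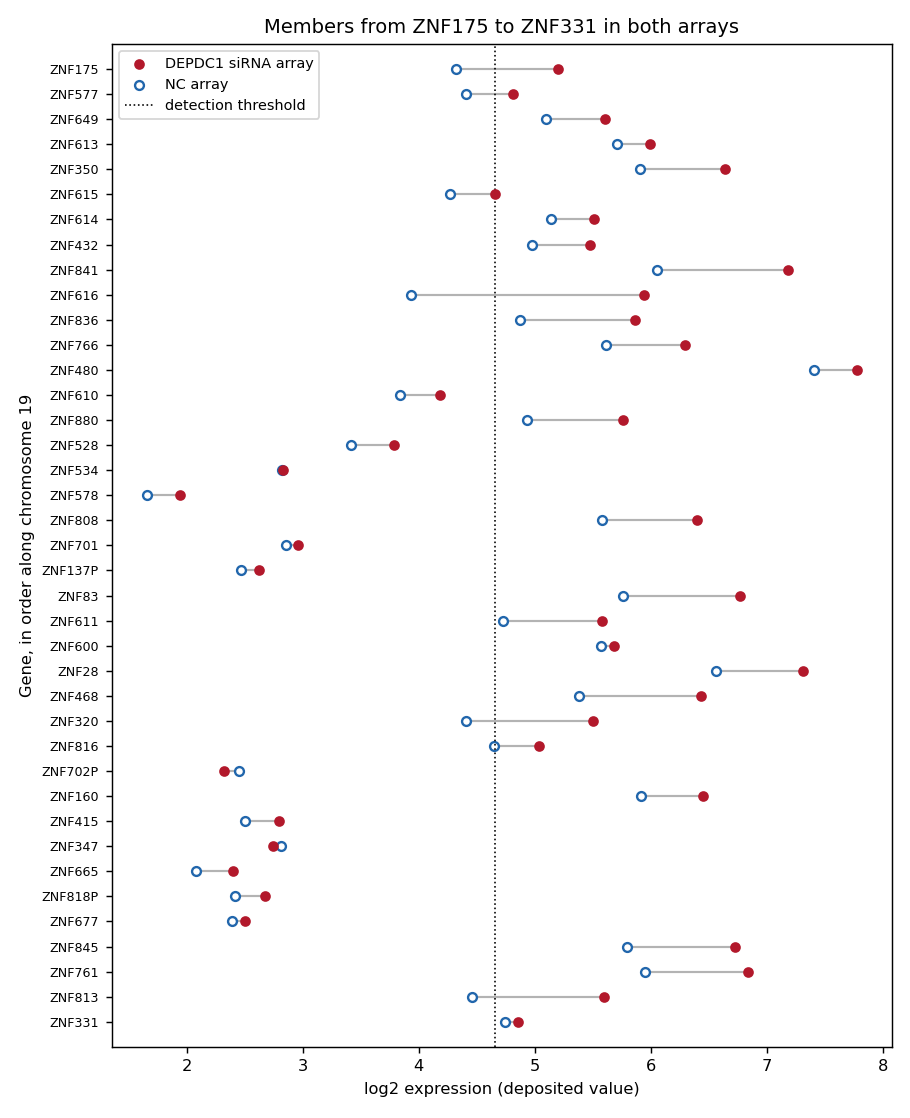
Log2 expression (horizontal axis) of the 39 members from ZNF175 to ZNF331 in chromosomal order (vertical axis), with the DEPDC1 siRNA array as filled red points, the NC array as open blue points and the detection threshold of 4.66 as a dotted line. The red point lies to the right of the blue one for 37 of the 39, and the gap is widest for ZNF616 at 2.01.

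Genes of other kinds lying between these members were few and mostly dim. Of 17 measured, 4 were detected. PPP2R1A, the scaffold subunit of protein phosphatase 2A, had 8.15 in the siRNA array and 7.79 in the NC array, a difference of 0.36. The pseudogene TPM3P9 had 8.61 and 8.27, SPACA6 differed by 0.11 and MIR99B by -0.10. Of the 4, 3 were higher and 1 was lower, with a median of 0.23. None of the 4 was at least 1.5-fold higher, beside 6.03% of all detected genes, and 4 genes are too few to weigh that count. These genes were named after their values had been seen.

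Members of the cluster with and without the word GGAAGCGGAT had overlapping differences. The 8 detected members with the word had a median of 0.91 and ran from 0.39 (ZNF816) to 1.14 (ZNF813). The 14 detected members with a window but without the word had a median of 0.70 and ran from 0.11 to 2.01. Of the 11 carriers, ZNF701, ZNF347 and ZNF677 were under the threshold in both arrays, with differences of 0.11, -0.07 and 0.12.

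The cluster from ZNF414 to ZNF846, on the short arm, had the next highest median, 0.42, over 8 detected of 11 measured members. All 8 were higher. ZNF426 had 6.14 in the siRNA array and 4.74 in the NC array, 2.64-fold higher, and this was the largest fold among members with both values above the threshold. ZNF558, which regulates the mitophagy gene SPATA18 in human neural progenitors, had 5.64 in the siRNA array and 4.54 in the NC array, at least 1.97-fold higher. ZNF121 had 7.25 and 6.63 in siRNA and NC, 1.53-fold higher. The smallest difference was that of ZNF414, 0.05.

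From ZNF653 to ZNF791, 13 of 24 members were detected, with 11 higher, 1 lower and 1 equal and a median of 0.21. Of the 13, 3 passed the threshold only through the siRNA value, so they had to be higher. Both arrays reached the threshold for 10, with 8 higher, 1 lower, 1 equal and a median of 0.18. ZNF823 was the only detected member there at least 1.5-fold higher, with 5.93 in the siRNA array and 5.23 in the NC array. ZNF791 had 7.19 in the siRNA array and 6.62 in the NC array, and ZNF136 had 6.0 and 5.62. ZNF653, which represses the nuclear receptor SF-1, was lower, with 5.26 in the siRNA array and 5.52 in the NC array. ZNF564 had the same value, 5.16, in both arrays.

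The cluster from ZNF101 to ZNF507 spans the centromere and holds the primate family around ZNF91. Of its 36 members 27 were detected, with 24 higher, 2 lower and 1 equal and a median of 0.21. ZNF93, a repressor of L1 retrotransposons, had 6.26 in the siRNA array and 5.40 in the NC array, 1.81-fold higher. ZNF91, a repressor of SVA retrotransposons, had 8.15 and 7.86 in siRNA and NC, 1.22-fold higher. ZNF486 had 6.21 in the siRNA array and 5.60 in the NC array, and ZNF724 had 7.59 and 6.98. Each was 1.52-fold higher.

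Further members of this cluster had smaller differences than ZNF93, ZNF486 and ZNF724. ZNF85 had 5.70 in the siRNA array and 5.19 in the NC array, ZNF43 had 6.0 and 5.53, and ZNF675 (TIZ), an inhibitor of TRAF6 signalling, had 6.86 and 6.55. ZNF208 had 7.20 and 7.05 in siRNA and NC. The lower members were ZNF507, with 7.27 in the siRNA array and 7.55 in the NC array, and ZNF430, with 6.41 and 6.54. The neuronal gene ZNF536 was under the threshold in both arrays (2.51 and 2.68). The 21 detected carriers of TCCAATCAGG had a median difference of 0.21 and ran from -0.12 (ZNF430) to 0.86 (ZNF93).

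On the long arm, the cluster from ZNF565 to ZNF573 had 15 of 26 members detected, 13 higher and 2 lower, with a median of 0.30. Of the 15, 6 passed the threshold only through the siRNA value, so they had to be higher, and 1 only through the NC value. Both arrays reached the threshold for 8, with 7 higher and a median of 0.17. Of these 8, 0 were at least 1.5-fold higher, beside 5.31% of all genes under that filter. The paralogues ZNF585A and ZNF585B had the largest differences there. ZNF585B had 5.45 in the siRNA array and 4.39 in the NC array, at least 1.73-fold higher, and ZNF585A had 5.21 and 4.28, at least 1.46-fold higher. ZNF570 had 4.95 in the siRNA array and 4.49 in the NC array. ZNF382, a KRAB repressor silenced by methylation in several tumours, had 5.53 and 5.16 in siRNA and NC. ZNF146 (OZF), a protein made almost wholly of fingers, had 9.17 in the siRNA array and 9.0 in the NC array. ZNF566 and ZNF527 were lower, each by 0.16.

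The cluster from ZNF575 to ZNF180 surrounds ZNF224. Of its 19 members 16 were detected, with 14 higher, 2 lower and a median of 0.31. Of the 16, 4 passed the threshold only through the siRNA value, so they had to be higher. Both arrays reached the threshold for 12, with 10 higher, 2 lower and a median of 0.25. Among the 16, 4 had measured folds of at least 1.5. For 2 of the 4, ZNF404 and ZNF285, the NC value was under the threshold and the bound is below 1.5-fold. ZNF404 had 4.84 in the siRNA array and 3.83 in the NC array, which gives a bound of at least 1.13-fold. ZNF227 had 6.26 in the siRNA array and 5.53 in the NC array, 1.65-fold higher, with both values above the threshold. ZNF285 had 4.97 and 4.28 in siRNA and NC, at least 1.24-fold higher. ZNF221 had the lowest difference among members with both values above the threshold, -0.38, with 4.80 in the siRNA array and 5.18 in the NC array, and ZNF576 differed by -0.03. ZNF45, just under the threshold, had 4.63 and 4.17.

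The cluster from ZNF628 to ZNF580 had the lowest median of the 8. All 7 members were detected in both arrays, 6 were lower and 1 was higher, with a median of -0.08 and a range of -0.12 to 0.19. ZNF579 had 5.91 in the siRNA array and 6.02 in the NC array, ZNF784 had 5.74 and 5.86, and ZNF581 had 5.11 and 5.22. ZNF865 was the higher one, with 4.92 in the siRNA array and 4.74 in the NC array. These differences are of the size seen between probe sets of 1 gene: over 444 genes with at least 2 detected probe sets, the range of their differences had a median of 0.0866 and a 90th percentile of 0.413. The median of 0.29 over all detected members also lies under that 90th percentile, as do the cluster medians from 0.21 to 0.31. This gauge compares probe sets within the same 2 arrays and does not measure variation between cultures. It is a range within single genes, whereas those medians are taken over several genes, so the measures are unlike and it does not give the spread of a median.

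The cluster at the long arm's end, from ZNF787 to ZNF446, was the largest, with 36 of 51 members detected, 31 higher, 4 lower and 1 equal, and a median of 0.23. Of the 36, 6 passed the threshold only through the siRNA value and 2 only through the NC value. Both arrays reached the threshold for 28, with 25 higher, 2 lower, 1 equal and a median of 0.22. ZNF805 had 6.18 in the siRNA array and 5.04 in the NC array, 2.20-fold higher. The pseudogene ZNF542P had 5.62 and 4.52 in siRNA and NC, at least 1.95-fold higher, and ZNF17 had 5.64 and 4.60, at least 1.97-fold higher. ZNF304 had 5.38 in the siRNA array and 4.53 in the NC array, at least 1.65-fold higher.

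Other members of this end cluster with a known role had smaller differences. ZNF587, a repressor of HERV-K elements, had 5.89 in the siRNA array and 5.38 in the NC array. ZNF274, which recruits SETDB1 and TRIM28 to the finger exons of ZNF genes, had 6.32 and 6.08 in siRNA and NC, a difference of 0.25. ZNF444, a SCAN domain gene, had 5.50 in both arrays, and ZNF446 had 5.33 in both. ZNF835 had 4.33 in the siRNA array, which is under the threshold, and 4.79 in the NC array, so it was at least 1.10-fold lower. ZNF773 and ZNF837 were each lower by 0.19. ZNF154, ZNF471, ZNF667 and ZNF671 were under the threshold in both arrays, and the first 2 and ZNF671 are known to be silenced by methylation in tumours.

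The remaining 14 detected members lay in small groups, with 10 higher and 4 lower, a median of 0.19 and a range of -0.28 to 0.46. The highest was ZNF302, with 6.58 in the siRNA array and 6.13 in the NC array. ZNF473 (ZFP100), which acts in processing of histone mRNA 3′ ends, had 7.01 in the siRNA array and 6.65 in the NC array. ZNF296 had 4.53 and 4.81 in siRNA and NC. ZNF358 had 6.79 in the siRNA array and 6.40 in the NC array. ZNF181 was lower by 0.23, ZNF780B by 0.16 and ZNF77 by 0.08. ZNF114 was under the threshold with 3.81 in both arrays.

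CpG density, a property the selection did not use, differed between clusters. It was counted in the first listed window of each gene only, though 36 members had more than 1, whereas the word search used all windows. The median number of CpG in that 300-base window was 20 for the members and 22 for 15843 protein-coding genes. It was 25 from ZNF175 to ZNF331, 10 from ZNF101 to ZNF507 and 29 from ZNF628 to ZNF580. The clusters with the highest and the lowest median difference thus both had more CpG than the median of all members. Over the 148 detected members with a window, Pearson's r between CpG number and difference was -0.05, a description over genes that share arrays and clusters.

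Only 5 members had more than 1 probe set of their own. No member's probe sets differed in sign. ZNF626 gave 0.42 and 0.18, ZNF257 gave 0.21 and 0.84, ZNF493 gave 0.20 and 0.22, and the 3 of ZNF208 lay between 0.05 and 0.18. Probe sets that the annotation gives to several genes stayed out of all counts above. Whether a probe set of 1 member also binds the transcripts of a close relative was not tested.

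A fixed list of KRAB corepressors and other chromatin genes, called corepressor genes here, lay on both sides of 0. Of 39 genes listed 35 were measured and 34 detected, with 19 higher, 14 lower and 1 equal and a median of 0.02. Among all detected genes 49.9% were higher and 48.1% lower. TRIM28, the KRAB-binding hub, had 8.29 in the siRNA array and 8.20 in the NC array. SETDB1, the H3K9 methyltransferase, had 5.35 and 5.34. The largest difference was that of ATF7IP2, a paralogue of the SETDB1 partner ATF7IP, with 6.37 in the siRNA array and 7.50 in the NC array, 2.20-fold lower. It was the only detected gene of the list at least 1.5-fold lower (1 of 34, beside 3.74% of all detected genes). At least 1.5-fold higher were 2 of the 34, DAXX and CHD3, beside 6.03%. Neither count exceeds the share among all detected genes.

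Chromatin remodellers and histone chaperones of the list differed both ways. DAXX, an H3.3 chaperone, had 5.36 in the siRNA array and 4.73 in the NC array, 1.54-fold higher, while its partner ATRX had 7.38 and 7.92, 1.45-fold lower. CHD3, a NuRD helicase, had 6.61 in the siRNA array and 6.02 in the NC array, 1.51-fold higher. HDAC1, a NuRD deacetylase, had 9.40 and 8.92 in siRNA and NC, and MTA1, another NuRD subunit, had 6.30 and 5.83. Other NuRD genes of the list went both ways. RBBP7 differed by -0.31, MTA3 by -0.20 and RBBP4 by -0.16, MTA2 by 0, HDAC2 by 0.0005 and CHD4 by 0.21. CBX3, an HP1 protein, had 7.73 in the siRNA array and 8.19 in the NC array.

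**Figure D4:**
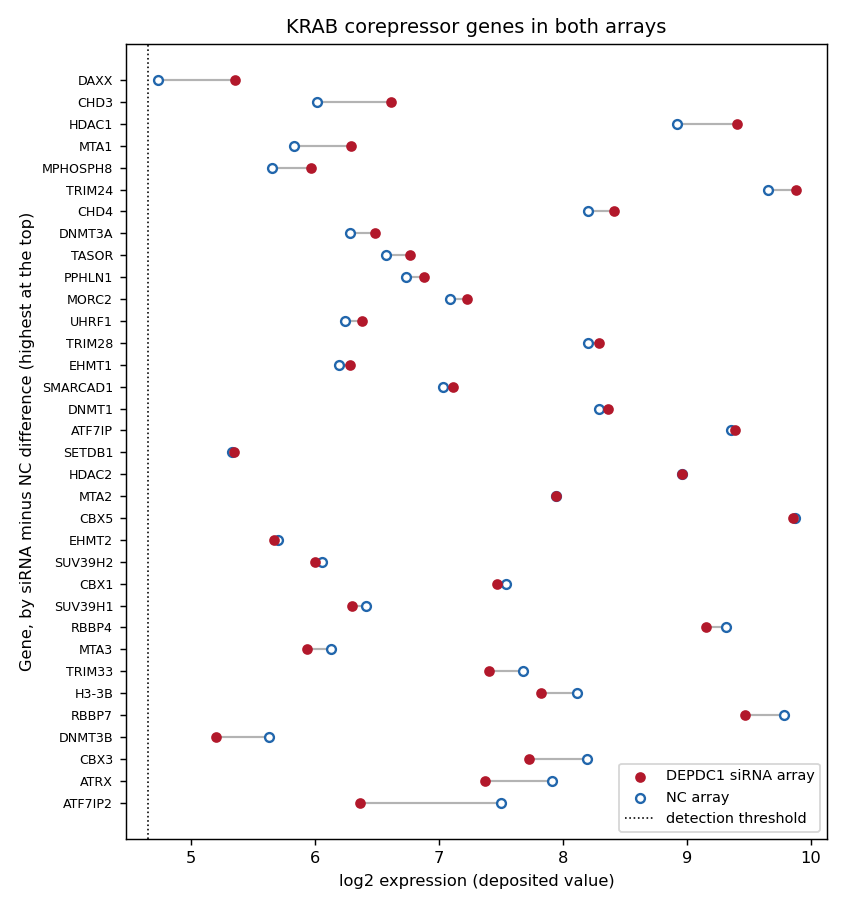
Log2 expression (horizontal axis) of the 34 detected genes of the list of KRAB corepressors and other chromatin genes, ordered by difference with the highest at the top (vertical axis). The DEPDC1 siRNA array is shown as filled red points, the NC array as open blue points and the detection threshold as a dotted line. Red lies to the right of blue for 19 genes and to the left for 14, with the widest gap at ATF7IP2 (6.37 in siRNA, 7.50 in NC).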

How the data were processed

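The deposited table gives 33297 probe sets, with a value for each in both arrays. Its unit is not stated in the labels. The authors' deposited values were taken as log2 expression from their range. Their sorted columns differed nowhere by more than 0.0997, so no further scaling was applied. Affymetrix Expression Console and version 3.0 of Transcriptome Analysis Console are named, per the submitters' processing notes, without their role. The sources used here do not give background correction, normalization or the array's genome build, so coordinates are printed only for RefSeq windows.

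By the platform annotation, 19460 probe sets have a single gene, 1754 have several, and no gene is listed for 12083. Entrez identifiers of 19429 matched the RefSeq gene table (GRCh38.p14), which gave symbols, chromosome and order. Of several probe sets of a gene, the one with the highest mean was kept. Python 3.11.15 with pandas 2.3.3, numpy 2.4.6 and scipy 1.17.1 computed differences (siRNA minus NC), counts and medians, tested on simulated data. The alternatives changed the threshold, probe set, scaling, cluster gap or members. Folds against a value under the threshold are bounds, and the number of arrays limits the precision.

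The members, lists and measures were chosen with earlier results of these data known. Named were up to 15 detected members with the largest difference each way, the 3 highest and the 3 lowest of each larger cluster, members with a listed role, those next to the threshold and the corepressor genes with the largest differences. The others, including most of those named from ZNF175 to ZNF331, were chosen after their values had been seen.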

Additional observations from a re-analysis of the deposited data

Results flagged for a closer look

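Some probe sets are annotated to several chromosome 19 ZNF genes and to no other gene, so they could be given to no member. Of 15 such probe sets 9 were detected, all 9 higher in the siRNA array, and 4 had a measured fold of at least 1.5. Of all 1024 detected probe sets with several genes, 49.7% were higher and 4.39% at least 1.5-fold higher. These 4 hold signal that the counts over members do not use. The probe set of ZNF284 and ZNF223 had 5.05 in the siRNA array and 4.34 in the NC array, a difference of 0.72. That NC value is under the threshold, so the fold is at least 1.32. The probe set of ZNF587 and ZNF587B had 7.28 in the siRNA array and 6.60 in the NC array, a difference of 0.67. From ZNF175 to ZNF331, the probe set of ZNF761, ZNF525, ZNF845 and ZNF765 had 10.2 in the siRNA array and 9.60 in the NC array, a difference of 0.62. The probe set given to ZNF761, ZNF525, ZNF320, ZNF813, ZNF845, ZNF765, ZNF83, ZNF701 and ZNF28 had 9.64 in the siRNA array and 8.87 in the NC array, a difference of 0.77.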

How the results depend on the processing

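No paired analysis was possible because each group has 1 array and the groups share a single replicate number. Over 16 results and 10 alternative settings (7 planned, 3 chosen after seeing the data), 126 of 140 values stayed within a tolerance: 0.0866 for a median, 1.5 times for a count, and the 95% exact binomial interval for the share of pairs. Within it, medians near 0 still moved, to 0 for other chromosome 19 genes without a filter and to 0.0063 for the corepressor genes with all probe sets of a gene averaged. Without a filter on low values the median over members was 0.21, the number of lower members 41, the share of same-sign pairs 72.0%, and the medians of ZNF175 to ZNF331 and ZNF565 to ZNF573 were 0.41 and 0.16. With the 75th percentile of all probe sets as the threshold, which left 40 members, 8 were at least 1.5-fold higher and 2 were lower, the same-sign share was 89.7%, the median of ZNF175 to ZNF331 was 0.89 and that of other chromosome 19 genes 0.17, and the median of ZNF genes on other chromosomes turned to -0.045. There only ZNF101 to ZNF507 and ZNF175 to ZNF331 kept 5 members, so the other 6 clusters had no value. The share of all genes at least 1.5-fold higher at that threshold is not given, so the count of 8 cannot be weighed. Requiring both arrays to reach the median left 131 members, 24 of them at least 1.5-fold higher (5.31% of all genes under that filter), and a median of 0.17 from ZNF565 to ZNF573. Without ZNF175 to ZNF331, 21 of 136 were at least 1.5-fold higher (15.4%, beside 6.03% of all detected genes) and the median was 0.21. The count of members at least 1.5-fold lower was 0 under each of these alternatives. Fewer members enter under the higher thresholds, and other causes were not tested. The alternative restricted to members with a C2H2 finger protein was not run. With 1 array per group, what the siRNA did cannot be told apart from what differed between the 2 cultures or hybridisations.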
